A study of Homo sapiens with 7 samples.

Results

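The chromatin of 10 genes of the β-catenin pathway was examined in HCT116 cells, a human colorectal carcinoma line. The genes were LRP5, LRP6, APC, AXIN1, GSK3B, CTNNB1, TCF7L1, TCF7L2, BCL9 and BCL9L. They were chosen by name, out of 20162 protein-coding genes of GENCODE 44 on hg19, and every deposited peak interval over the gene body and 10 kb on each side was collected. HCT116 cells, with no treatment named in the labels, at 200000 cells per well were crosslinked and sheared in a 96-well plate with the PIXUL sonicator, and the chromatin of 1 well was used for each antibody in chromatin immunoprecipitation and sequencing (ChIP-seq). There were 7 libraries, each of 1 antibody (H3K4me1, H3K4me3, H3K9Ac, H3K27Ac, H3K27me3, H3K36me3 and CTCF), and the peak lists of 6 were used. H3K27Ac was not analysed here. With 1 library per mark there were no replicates and no tests, the error of each value is unknown, and neighbouring values in any ranking cannot be told apart.

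In the absence of a Wnt signal, β-catenin is held low by a destruction complex that phosphorylates it and marks it for degradation. When a Wnt ligand engages a Frizzled receptor and its LRP co-receptor, this complex is inhibited, and β-catenin enters the nucleus, where it binds TCF factors and recruits co-activators. HCT116 is known as a line with an activating mutation of CTNNB1, and the pathway maintains the stem cells of the intestinal epithelium. Of the marks, H3K4me3 and H3K9Ac accompany active promoters, H3K4me1 marks enhancers and the edges of promoters, H3K36me3 lies over transcribed gene bodies, H3K27me3 accompanies Polycomb repression, and CTCF is a DNA-binding protein of chromatin loops and boundaries.

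Each interval carries a fold enrichment, the linear ratio of its reads over the local background, and a −log10 q-value, both for the whole interval. The limits of the study were applied: for H3K4me1 and H3K27me3 more than 2-fold enrichment at a q-value under 0.001, and for the others more than 5-fold enrichment at a q-value under 1e-10. Intervals that met them are called peaks past the limits, and the lists also hold weaker intervals. Over the 10 genes there were 234 intervals, 75 of them past the limits, of 240889 intervals in all lists. The lists held between 16112 intervals (H3K4me3) and 55270 (H3K27me3), and the read depth behind them is unknown. Of 12 epithelial and intestinal marker genes, 6 had H3K4me3 past the limits at the transcription start site (TSS), namely CDH1, EPCAM, KRT8, KRT18, KRT19 and CDX2. KRT20, CDX1, VIL1, CDH17, LGALS4 and GPA33 had no H3K4me3 interval there. Of 20 markers of other cell types, only COL1A1 had such a peak, of 9.21-fold.

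At the TSS of the canonical transcript (1 kb on each side), 9 of the 10 genes had an H3K4me3 peak past the limits, against 59.1% of all protein-coding genes. H3K9Ac passed at 8 genes (58.5% over all genes) and H3K4me1 at all 10 (49.1% over all genes). The median fold enrichment at the TSS was 19.7 for H3K4me3, 12.5 for H3K9Ac and 5.07 for H3K4me1, beside 14.5, 9.09 and 3.66 over all genes, counting a gene without an interval as 0. Over the genes that had a peak past the limits, these medians were 22.5, 13.1 and 4.69, so the typical promoter of the 10 genes lay near that of other marked genes. H3K4me3 fold enrichment was highest at CTNNB1, LRP5 and GSK3B and lowest at APC, and BCL9 had no interval. The order of the genes by H3K9Ac was close to that by H3K4me3 (Spearman's rho 0.98 across the 10 genes, 0.95 across all genes), as a description over sites of single libraries that share regions and base composition. The corresponding rho of H3K4me3 with H3K4me1 was 0.19 across the 10 genes and 0.61 across all genes. Genes without an interval enter the all-gene values at 0. Those values therefore also reflect marked against unmarked genes, and are not like for like with those of the 10 genes.

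**Figure D1:**
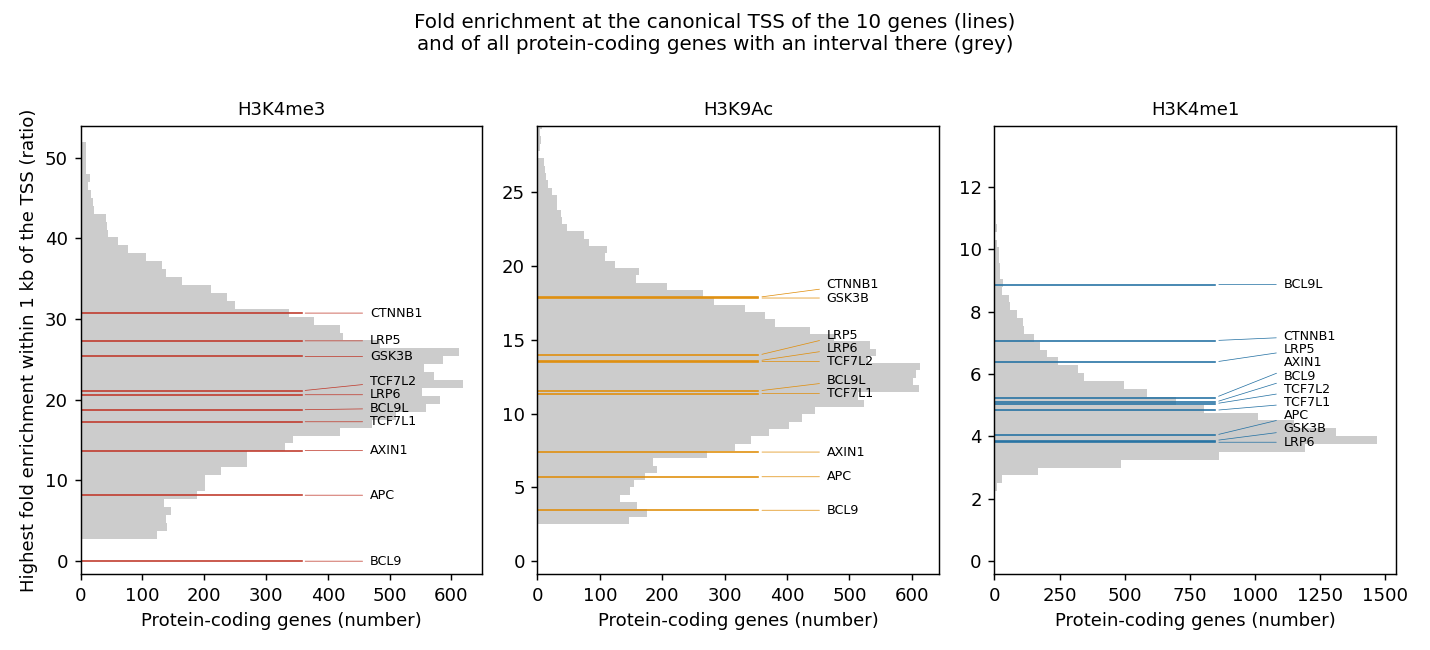
Highest fold enrichment (linear ratio) of any deposited interval within 1 kb of the canonical TSS, for H3K4me3, H3K9Ac and H3K4me1, with the grey histogram counting all protein-coding genes that have an interval there and the coloured lines marking the 10 genes. For H3K4me3, CTNNB1 sits highest at 30.8 and BCL9, with no interval, is drawn at 0, and the few highest genes of all lie above the plotted range.

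LRP5 and LRP6 encode the paired co-receptors that bind Wnt together with Frizzled. LRP5 (ENSG00000162337, plus strand, chr11:68080059-68216743) has 23 exons in its canonical transcript. Its TSS lay in an H3K4me3 peak of 27.3-fold (−log10 q 96.6) from −0.5 to 2.9 kb and an H3K9Ac peak of 13.95-fold (−log10 q 39.4) from −0.9 to 6.0 kb. The H3K4me1 peak there reached as far, from −0.7 to 6.2 kb, at 6.39-fold. LRP5 held further H3K4me1 peaks within the gene. The peak from 24.6 to 32.2 kb in intron 1 had a fold enrichment of 6.93, and that from 38.8 to 43.4 kb in intron 2 had 8.15. Both were overlapped by H3K9Ac intervals below the limits, of 5.71-fold and 5.29-fold. Another H3K4me1 peak of 7.70-fold lay upstream, from −10.6 to −9.1 kb. A second H3K4me3 peak in the window, 24.0-fold from 146.6 to 149.6 kb, lay past the end of LRP5 and held the TSS of the neighbouring gene PPP6R3.

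LRP6 (ENSG00000070018, minus strand, chr12:12268959-12419978), also with 23 exons, had H3K4me3, H3K9Ac and H3K4me1 intervals at its TSS and nowhere else in the window. It had 1 H3K4me3 peak (20.6-fold, −log10 q 62.0), 1 H3K9Ac peak (13.6-fold, −log10 q 35.9) and 1 H3K4me1 peak (3.81-fold, −log10 q 3.01), which together spanned −1.2 to 2.0 kb around the TSS. It was the only one of the 10 genes without a CTCF interval in the window. Its H3K4me1 coverage of the gene body, 0.983%, came from the promoter interval alone. The 14.3% at LRP5 held intervals within its introns as well as its promoter peak.

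APC, AXIN1 and GSK3B encode parts of the destruction complex: APC and AXIN1 are its scaffolds, and GSK3B is a kinase that phosphorylates β-catenin. APC (ENSG00000134982, plus strand, chr5:112043215-112181936) had its strongest promoter marks away from the canonical TSS. At the canonical start, that of transcript APC-201 at position 112073582, H3K4me3 was 8.18-fold (−log10 q 14.6) and H3K9Ac was 5.72-fold (−log10 q 7.89), the latter below the limits. At the upstream start of the coding transcripts APC-209 and APC-206, at −30.4 kb, H3K4me3 was 30.1-fold (−log10 q 104.0) and H3K9Ac was 11.6-fold (−log10 q 28.2). The upstream start thus carried 3.68 times the H3K4me3 fold enrichment and 2.03 times the H3K9Ac fold enrichment of the canonical one. H3K4me1 was similar at both, 3.87-fold upstream and 4.04-fold at the canonical start. Read at its upstream start, APC would stand close to CTNNB1 in H3K4me3. The sequences of both starts, from 250 bases before to 50 bases from the TSS on the plus strand of hg19, are shown to place the compared starts, with CpG dinucleotides in capitals.
APC-201 (chr5:112073332-112073631): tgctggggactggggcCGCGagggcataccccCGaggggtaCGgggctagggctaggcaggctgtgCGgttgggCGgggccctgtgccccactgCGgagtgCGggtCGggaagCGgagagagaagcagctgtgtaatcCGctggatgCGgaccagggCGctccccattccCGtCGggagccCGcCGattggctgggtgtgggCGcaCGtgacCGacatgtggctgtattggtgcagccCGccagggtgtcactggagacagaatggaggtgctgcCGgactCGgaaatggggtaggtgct
APC-209 (chr5:112042965-112043264): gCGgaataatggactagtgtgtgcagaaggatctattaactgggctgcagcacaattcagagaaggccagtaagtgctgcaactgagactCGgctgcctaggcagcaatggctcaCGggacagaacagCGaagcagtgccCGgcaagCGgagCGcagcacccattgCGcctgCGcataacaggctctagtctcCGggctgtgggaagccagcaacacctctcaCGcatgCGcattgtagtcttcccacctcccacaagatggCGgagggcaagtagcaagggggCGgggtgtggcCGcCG
The upstream sequence held 16 CpG and the canonical one 23, and the ratio of observed to expected CpG was 0.603 and 0.709. The start with more H3K4me3 therefore did not have more CpG. Within the gene, H3K4me1 peaks lay from 10.2 to 12.4 kb in intron 1 (3.25-fold) and from 20.5 to 21.3 kb in intron 2 (3.46-fold).

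AXIN1 (ENSG00000103126, minus strand, chr16:337440-402723) had an H3K4me3 peak of 13.7-fold (−log10 q 35.7) from −0.9 to 1.2 kb and an H3K9Ac peak of 7.39-fold (−log10 q 13.4) from −1.0 to 2.7 kb. Both were below the medians of genes with a peak. H3K4me1 did not cover the TSS itself: a peak of 5.24-fold ended 521 bp before it, and an interval of 3.72-fold, below the limits, began 847 bp after it. The strongest H3K4me1 of AXIN1 lay in intron 2, from 22.9 to 28.3 kb, at 6.18-fold, with an H3K9Ac interval of 3.78-fold inside it that did not pass the limits.

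GSK3B (ENSG00000082701, minus strand, chr3:119540168-119813841), the longest of the 10 at 273.7 kb, had all its promoter-type marks within a few kb of the TSS. H3K4me3 was 25.4-fold (−log10 q 82.5) from −2.5 to 1.5 kb, and 98.0% of all genes had a narrower H3K4me3 interval at the TSS or none. H3K9Ac was 17.8-fold (−log10 q 53.1) from −3.6 to 3.0 kb. H3K4me1 lay on both sides, as peaks of 3.87-fold from −2.3 to 0.2 kb and 4.37-fold from 1.4 to 2.1 kb. No H3K4me1 or H3K9Ac interval lay anywhere else in the window.

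CTNNB1 (ENSG00000168036, plus strand, chr3:41236232-41301587) encodes β-catenin itself, which also links cadherins to the cytoskeleton. It had the highest H3K4me3 (30.8-fold, −log10 q 105.9) and the highest H3K9Ac (17.87-fold, −log10 q 52.8) of the 10 canonical TSSs, in peaks from −0.9 to 1.2 kb and from −1.1 to 1.4 kb. Over all genes, 90.9% had a lower H3K4me3 value and 92.2% a lower H3K9Ac value. H3K4me1 was split around the start: a peak of 7.07-fold ended 249 bp before the TSS, and an interval of 3.70-fold, below the limits, began 1003 bp after it. Such a gap was also seen at AXIN1 and TCF7L2, and an H3K4me1 interval covered the TSS base in 6 of the 9 genes with H3K4me3 past the limits there, near the 58.3% over all such genes. Past the end of CTNNB1, from 65.2 to 69.5 kb, lay an H3K4me1 peak of 4.92-fold with H3K9Ac intervals of 2.73-fold and 3.15-fold, both below the limits.

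TCF7L1 and TCF7L2 encode DNA-binding factors of the TCF family, through which β-catenin reaches its target genes, and TCF7L1 is known mainly as a repressor. TCF7L1 (ENSG00000152284, plus strand, chr2:85360515-85537510) had an H3K4me3 peak of 17.3-fold (−log10 q 48.5) from −1.0 to 1.2 kb and an H3K9Ac peak of 11.35-fold (−log10 q 25.4) from −1.7 to 1.2 kb. H3K4me1 there was 4.84-fold. Its other H3K4me1 lay in the 3′ part of the gene, between 114.8 and 162.2 kb in introns 3 and 4, as 4 short peaks past the limits, of 3.68-fold to 5.49-fold, and 1 interval of 3.43-fold below them. H3K9Ac overlapped only that from 160.5 to 162.2 kb, at 3.05-fold and below the limits.

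TCF7L2 (ENSG00000148737, plus strand, chr10:114710006-114927437) was the gene with most intervals of the enhancer and promoter marks. Its H3K4me3 peak (21.1-fold, −log10 q 71.1) was 6.3 kb wide, from −0.8 to 5.5 kb, and 99.8% of all genes had a narrower one or none. The H3K9Ac peak (13.5-fold, −log10 q 42.8) extended over 19.4 kb, from −2.5 to 16.9 kb, through exons 1 to 4. Within the gene there were 17 more H3K9Ac intervals, all below the limits at 2.53-fold to 5.20-fold. There were 18 H3K4me1 intervals in all, 6 of them past the limits. The 2 with the highest fold enrichment were wide and lay in intron 5, from 111.6 to 127.1 kb (7.30-fold) and from 132.1 to 147.3 kb (6.86-fold). H3K4me1 intervals covered 47.4% of the gene body and H3K9Ac intervals 28.0%. Of the 3666 protein-coding genes of 100 kb and more, 99.6% had a lower H3K4me1 coverage and 99.0% a lower H3K9Ac coverage, so TCF7L2 stood near the top of long genes for both.

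BCL9 and BCL9L encode related adaptors that join β-catenin to Pygopus and the transcription machinery. BCL9 (ENSG00000116128, plus strand, chr1:147013271-147098017) was the gene without H3K4me3 at its canonical TSS, that of BCL9-201. That start lay in an H3K4me1 peak of 5.10-fold (−log10 q 6.55) from −4.5 to 0.8 kb and an H3K9Ac interval of only 3.45-fold (−log10 q 2.69), below the limits. The only H3K4me3 peak of the gene, 17.6-fold (−log10 q 49.2), lay from 57.6 to 59.7 kb in intron 1, with H3K9Ac of 14.0-fold (−log10 q 35.5) and H3K4me1 of 4.37-fold (−log10 q 4.52). It held the start of BCL9-202, at 58.7 kb, a transcript that the annotation lists without a defined coding sequence. H3K9Ac fold enrichment was 4.06 times higher at this inner start, and H3K4me1 was 0.858 times that at the canonical one. The sequences around both starts are shown in the same form, since they differ in CpG content.
BCL9-201 (chr1:147013021-147013320, plus strand): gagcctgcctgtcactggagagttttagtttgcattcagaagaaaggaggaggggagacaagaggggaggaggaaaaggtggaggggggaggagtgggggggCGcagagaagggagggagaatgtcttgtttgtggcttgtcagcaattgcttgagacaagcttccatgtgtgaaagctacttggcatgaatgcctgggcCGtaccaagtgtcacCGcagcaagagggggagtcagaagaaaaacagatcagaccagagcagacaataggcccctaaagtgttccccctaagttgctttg
BCL9-202 (chr1:147071738-147072037, plus strand): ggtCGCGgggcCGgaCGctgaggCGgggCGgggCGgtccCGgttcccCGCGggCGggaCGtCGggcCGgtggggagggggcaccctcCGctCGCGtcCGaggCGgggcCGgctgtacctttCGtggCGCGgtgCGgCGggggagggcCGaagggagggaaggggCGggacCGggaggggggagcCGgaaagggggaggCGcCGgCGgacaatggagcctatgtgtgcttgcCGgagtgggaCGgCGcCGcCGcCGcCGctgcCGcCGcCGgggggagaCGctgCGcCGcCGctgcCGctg
The canonical window held 3 CpG, with an observed to expected ratio of 0.163, and the inner one held 47, with a ratio of 1.03. In BCL9, unlike in APC, the start with H3K4me3 was also the one with more CpG. Over the same 300-base window at the canonical TSS, 8 of the 10 genes had a ratio above 0.6, as did 67.0% of 20140 promoters of protein-coding genes, and the exceptions were BCL9 and BCL9L (0.522). The TCF motif, searched as CTTTGAT and CTTTGAA on both strands, was found in 0 of these 10 windows and in 5.28% of all promoters.

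**Figure D2:**
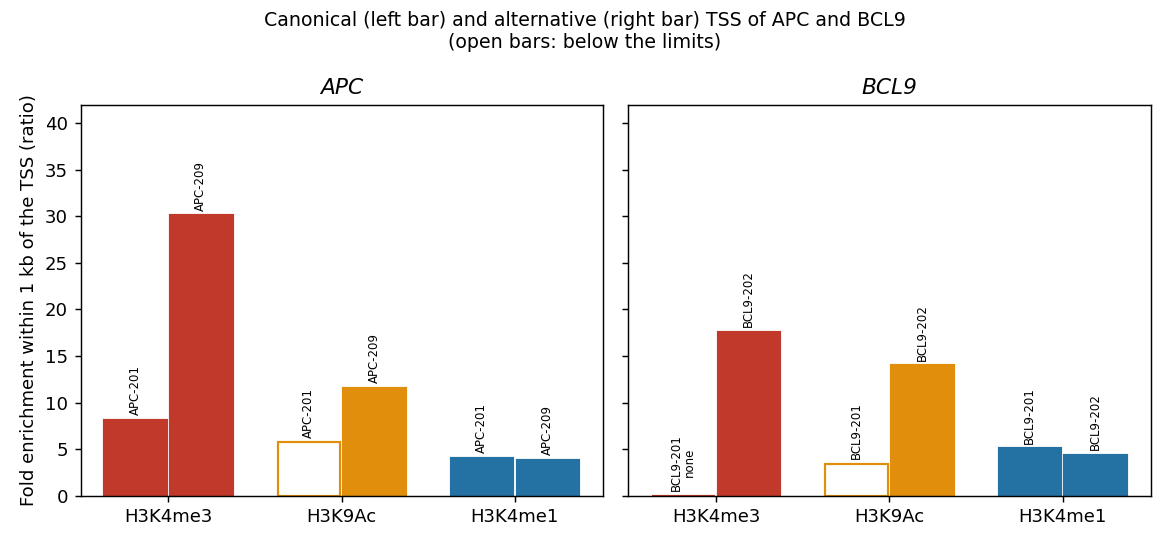
Fold enrichment (linear ratio) of H3K4me3, H3K9Ac and H3K4me1 within 1 kb of the canonical TSS (left bar of each pair) and of the alternative TSS (right bar) of APC and BCL9, 1 library per mark, with open bars for intervals below the limits. H3K4me3 is 8.18 and 30.1 at the APC starts and absent from the list and 17.6 at the BCL9 starts, while H3K4me1 is between 3.87 and 5.10 at all of them.

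BCL9L (ENSG00000186174, minus strand, chr11:118764584-118796635), the shortest gene at 32.1 kb, had a wide domain of H3K9Ac and H3K4me1 that covered 64.5% and 63.8% of its body and began upstream of it. A single H3K9Ac peak of 27.3 kb (11.5-fold, −log10 q 27.5) extended from −6.6 to 20.7 kb, and a single H3K4me1 peak of 28.5 kb (8.87-fold, −log10 q 17.9) from −8.1 to 20.4 kb. Of all genes, 99.9% had a narrower H3K9Ac interval at the TSS or none, and the same share held for H3K4me1. H3K4me3 was confined to shorter stretches of the domain: peaks of 18.8-fold (−log10 q 60.4) from −0.5 to 4.2 kb and 14.0-fold (−log10 q 35.5) from −4.6 to −2.0 kb, and intervals below the limits of 3.34-fold and 6.15-fold further into the gene. The last of these held the start of the coding transcript BCL9L-201. H3K4me1 of 8.32-fold lay beyond the gene end, from 36.7 to 38.6 kb, with an H3K9Ac interval of 4.55-fold below the limits. That H3K4me1 peak held the TSS of a long non-coding RNA and lay 3440 bp from the TSS of the neighbouring gene CXCR5.

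**Figure D3:**
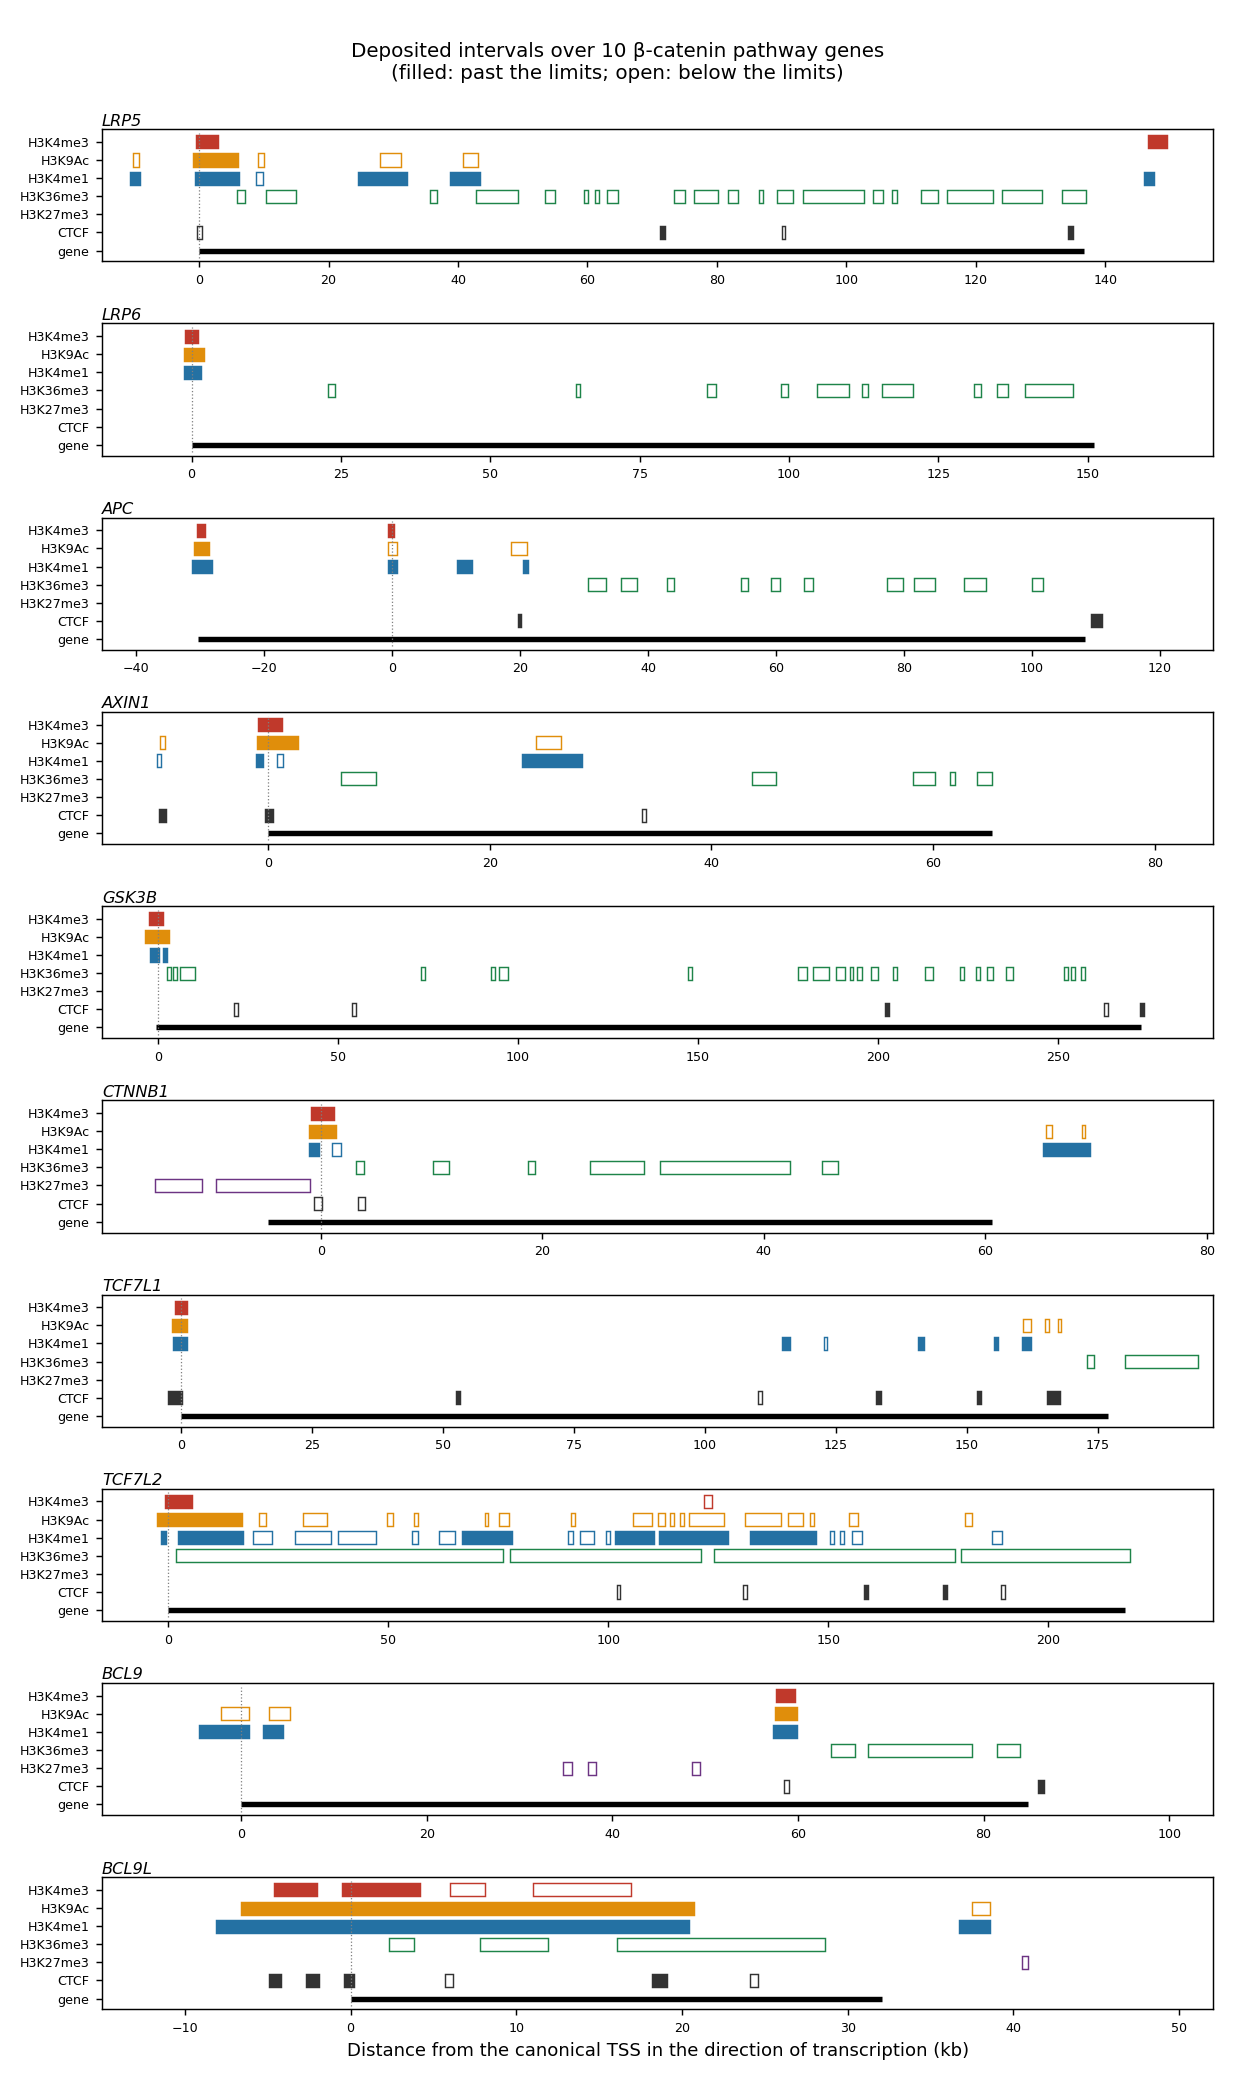
Deposited intervals of the 6 marks over each of the 10 genes, by distance from the canonical TSS in the direction of transcription (kb), with the gene as a black bar, filled boxes for intervals past the limits and open boxes for those below them, and very short intervals drawn at a minimum width. The maps show LRP6 with H3K4me3, H3K9Ac and H3K4me1 at the promoter alone, the upstream start of APC, the inner start of BCL9, the wide domain of BCL9L and the H3K36me3 along TCF7L2.

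Within the gene bodies and more than 1 kb from coding TSSs there were 16 H3K4me1 peaks past the limits, in 6 genes: 5 in TCF7L2, 4 in TCF7L1, 2 each in LRP5, APC and BCL9, and 1 in AXIN1. Their fold enrichment ranged from 3.25 to 8.15. An H3K9Ac interval, past the limits or not, overlapped 12 of the 16, beside 69.9% of 11131 such peaks in all protein-coding genes. H3K9Ac past the limits overlapped only 2 of them, and both lay at promoter-type sites. The TCF7L2 peak lay under the wide H3K9Ac peak of its TSS, and the BCL9 peak lay at the inner start. LRP6, GSK3B, CTNNB1 and BCL9L had none, though the domain of BCL9L counts as promoter here because it reaches the TSS.

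H3K36me3 was present in the body of all 10 genes, but only as weak intervals. All 85 intervals over the genes lay between 2.46-fold and 4.66-fold with a −log10 q-value of at most 5.83, and none passed the limits. This held at the TSS (0 of 10, with 0.298% of all genes past the limits) and over gene body and flanks (0 of 10, with 0.789%). In the whole list only 90 of 40010 intervals passed. With all deposited intervals, 56.3% of all genes had H3K36me3 in the body. The median coverage of the body was 18.6% over the 10 genes and 4.83% over all genes. For the 6 genes of 100 kb and more it was 16.7%, and 0.990% over the 3666 protein-coding genes of that length. Genes without an interval enter these medians at 0. H3K4me3 passed the limits at the TSS of 9 of the 10 genes, against 59.1% of all genes. The medians are therefore not like for like. They do not show that the 10 genes held more H3K36me3 than other genes with a marked promoter.

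TCF7L2 and TCF7L1 lay at opposite ends. H3K36me3 intervals covered 96.5% of the TCF7L2 body, in 4 long intervals from 1.8 to 218.6 kb at 3.53-fold to 4.66-fold, and 99.0% of all genes had less. They covered 0.668% of TCF7L1, in 1 interval in the last part of the gene. Less was covered in 45.1% of all genes and in 48.0% of those of 100 kb and more, so TCF7L1 was not unusually low. BCL9L (56.6%), LRP5 (43.1%) and CTNNB1 (32.1%) followed TCF7L2. BCL9 had 19.3%, LRP6 17.9%, APC 15.5%, AXIN1 13.7% and GSK3B 12.8%. In BCL9 all intervals lay in the last of 4 equal parts of the gene, of which they covered 77.3%, and the first of them began at 63.6 kb, downstream of the inner H3K4me3 peak. The longest of these BCL9 intervals also held the TSS of another protein-coding gene record. In LRP5 the covered share grew from 16.9% of the first part to 64.4% of the last, and in LRP6 from 3.10% to 43.0%. In CTNNB1 it was highest in the third part, at 80.4%, and 8.82% in the last.

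**Figure D4:**
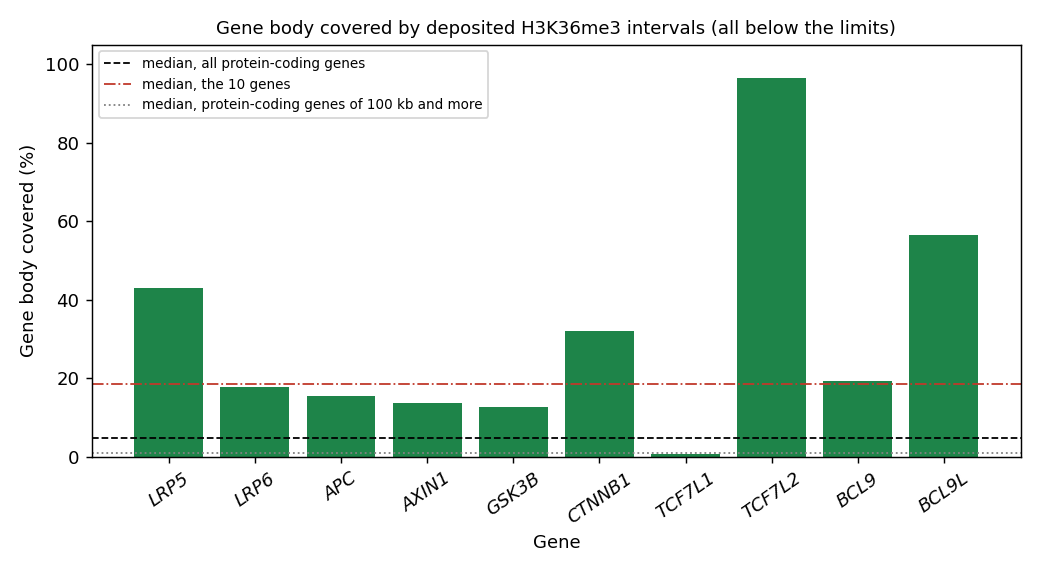
Share of each gene body (%) covered by deposited H3K36me3 intervals, all of them below the limits, with lines for the medians of the 10 genes, of all protein-coding genes and of protein-coding genes of 100 kb and more. TCF7L2 stands at 96.5%, TCF7L1 at 0.668%, and 9 of the 10 genes exceed the all-gene median of 4.83%.

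H3K27me3 past the limits was found at none of the 10 genes, where 1.22% of all genes had it at the TSS and 3.94% over gene body and flanks. The peak names inside the H3K27me3 list do not carry the name of the cell line, as those of the other lists do, so its values rest on the label alone. Weak intervals, of 2.63-fold to 3.23-fold, touched 3 genes, against 30.0% of all genes. The windows of the 10 genes had a median of 157.7 kb, and those of all genes 47.2 kb. Shares over gene body and flanks are therefore not like for like, here and for the other marks. BCL9 had 3 of the weak H3K27me3 intervals in intron 1, between its canonical and inner starts, from 34.7 to 49.4 kb. CTNNB1 had 2 upstream, the nearer from −9.5 to −1.0 kb at 3.23-fold (−log10 q 2.02), which ended 986 bp before the TSS and covered the starts of alternative CTNNB1 transcripts. BCL9L had 1 beyond its 3′ end.

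CTCF peaks past the limits lay in the windows of 8 of the 10 genes, beside 62.4% of all genes, and at the TSS of 3 (AXIN1, TCF7L1 and BCL9L), beside 13.6%. CTNNB1 had intervals below the limits only (3.54-fold and 5.32-fold), as had LRP5 at its TSS (5.29-fold). There were 20 peaks past the limits in all, from 6.41-fold in the 3′ flank of APC to 17.5-fold upstream of BCL9L. Set against length, BCL9L had 4 in 52.1 kb, 7.69 per 100 kb, and TCF7L1 had 5, 2.54 per 100 kb. The median of the 10 genes was 1.11 and that of all genes 1.19.

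The CTCF core, a motif of 12 bases searched on both strands, was present without mismatch in 9 of these 20 peaks. Over all 24536 CTCF peaks past the limits it was present in 22.4%, and in 0.591% of the same intervals moved by 10000 bp. Of the 15 CTCF intervals below the limits, 2 held it. The peaks of TCF7L1 and BCL9L are given here with their sequence, 30 bases read along the strand of the core and the core in capitals, because these genes held the densest CTCF and had cores in both directions.
TCF7L1 at 133.3 kb, intron 3 (chr2:85493763-85493792, plus strand): acttgggaaCCACCAGGGGGCagtgtggag
TCF7L1 at 152.3 kb, intron 4 (chr2:85512758-85512787, minus strand): tgactggcaCCACTAGAGGGCacccgcgcc
TCF7L1 at 165.6 kb, intron 4 (chr2:85526068-85526097, minus strand): taccgtttcCCACTAGGTGGCatcattgtc
TCF7L1 at 167.1 kb, intron 4 (chr2:85527632-85527661, minus strand): taaccatgaCCACCAGGTGGCgccagcaca
BCL9L at −4.5 kb, upstream (chr11:118801129-118801158, minus strand): cagatttagCCACCAGGGGGCaaaaaagca
BCL9L at 18.7 kb, exon 5 (chr11:118777888-118777917, plus strand): ctccactaaCCAGTAGGTGGCagcataggc
In TCF7L1 the peaks holding these cores had fold enrichments of 14.0, 16.2 and 14.1, the last peak holding the cores at 165.6 and 167.1 kb. The core at 133.3 kb and the 3 others faced each other across the H3K4me1 peak from 140.7 to 141.8 kb. Between the core at 133.3 kb and those at 165.6 and 167.1 kb also lay the H3K4me1 peaks from 155.2 to 155.8 kb and from 160.5 to 162.2 kb. In BCL9L the core of the peak at −4.5 kb (16.3-fold) and that of the peak at 18.7 kb (12.5-fold) also faced each other, and both lay inside the H3K9Ac and H3K4me1 domain, near its ends. The exon named for BCL9L is overlapped by the peak, and whether the core itself lies in it was not checked. The TSS peaks of AXIN1 (10.35-fold), TCF7L1 (9.47-fold) and BCL9L (7.87-fold) had no exact core. The other exact cores of peaks past the limits were in LRP5 (at 71.5 kb in intron 5 and 134.8 kb in intron 22), in the 3′ flank of APC (110.5 kb) and just past BCL9 (86.2 kb).

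Among 62 further genes of the pathway, 53 had H3K4me3 past the limits at the TSS, 54 H3K9Ac and 42 H3K4me1. The shares over all genes were 59.1%, 58.5% and 49.1%. The median H3K4me3 fold enrichment of the 62 genes, 21.6, was near the 19.7 of the 10 genes. By role, H3K4me3 passed at 2 of 2 genes of ligand secretion, 3 of 3 junction genes, 20 of 21 cytoplasmic genes, 16 of 19 nuclear genes and 12 of 17 receptors. Those without it were the receptors FZD8, FZD9, FZD10, LGR5 and LGR6, the cytoplasmic APC2, and the nuclear LEF1, TLE4 and CTBP2. LEF1, a TCF-family factor like TCF7L1 and TCF7L2, and APC2, a relative of APC, had no H3K4me3 interval at their TSS. The highest values were those of CUL1 (47.0-fold), a scaffold of the ubiquitin ligase that marks β-catenin, CSNK1D (40.3-fold), a casein kinase, and LGR4 (34.6-fold), an R-spondin receptor. H3K27me3 past the limits was found at 4 of the 62, counting both TSS and gene body, where 3.03% of all genes had it, a share at which 0 of 10 says nothing particular about the 10 genes. They were the receptors FZD3, FZD8 and LGR5 and the nuclear co-repressor CTBP2. At CTBP2 the peak lay in the gene body, with no H3K27me3 interval at the TSS, and H3K36me3 intervals covered 67.7% of the body. For these 62 genes H3K4me3 was read at the canonical TSS only, so marks at other starts were not examined. LGR5, a marker of intestinal stem cells, had 6.32-fold H3K4me3 below the limits, 8.29-fold H3K4me1 and 4.58-fold H3K27me3 at its TSS. H3K36me3 passed the limits at none of the 62 TSSs and CTCF at 13, beside the 13.6% over all genes.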

How the data were processed

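The peak lists of 6 ChIP-seq libraries were used, 1 per mark, each grouped by the antibody in its label. The authors aligned reads to hg19 and called broad peaks with MACS2 per library. The submitters' processing notes list BWA 0.7.12, SAMtools 0.1.19, bcl2fastq 2.20.0.442 and MACS 1.4.2, so the version of the peak caller is uncertain. The deposited fold enrichment is a linear ratio, and the deposited −log10 p-value and −log10 q-value also belong to the whole interval. The deposited score column was not used. All intervals begin at a q-value near 0.1, so weak intervals are included. Depth is not recoverable from the lists. It sets which intervals pass and how wide they are.

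Members and gene lists were chosen with earlier results of these data known. Genes came from GENCODE 44 on hg19, with the canonical TSS or, where none is given, the 5′ end, and introns are those of the canonical transcript. Overlap required 1 bp. The value at a TSS is the highest fold enrichment within 1 kb, and a gene without an interval counts as 0. Overlaps were tested on simulated data (600 of 600 planted overlaps recovered) and against bedtools 2.31.1 (0 of 60 gene and mark pairs differed). Promoters were 300 bases, and sequences were read from hg19 with samtools 1.23.1 and pyfaidx 0.9.0.4. The ratio of observed to expected CpG is CpG times length over C times G. Python 3.11.15, numpy 2.4.6, pandas 2.3.3 and matplotlib 3.10.9 were used. From the wider list, genes were named that had H3K27me3 past the limits or lacked H3K4me3 past them, with the 3 highest in H3K4me3. PECAM1, a planned marker, was not measured.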

Additional observations from a re-analysis of the deposited data

How the results depend on the processing

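With all deposited intervals, the peak counts over the genes moved beyond 1.5 times for every mark but H3K4me3. Windows and flanks moved no count that far. Of 69 recomputed values for 14 results, 53 stayed within 1.5 times the reported value. With all deposited intervals, the peaks over the genes rose from 10 to 43 for H3K9Ac, 32 to 49 for H3K4me1, 0 to 85 for H3K36me3, 0 to 6 for H3K27me3 and 20 to 35 for CTCF, and the genes with an interval at the TSS from 0 to 1 for H3K27me3 and 3 to 5 for CTCF. At a q-value under 0.01 and more than 2-fold enrichment in each list, the peaks were 28 for H3K9Ac, 26 for H3K36me3, 1 for H3K27me3 and 35 for CTCF, and the genes 1 for H3K27me3 and 5 for CTCF. The median H3K36me3 body coverage of 18.6% became 10.9% at those limits and 0.0% at the limits of the study. With 1 mismatch allowed, 14 CTCF peaks rather than 9 held the core, beside 65.9% of all CTCF peaks and 6.92% of the moved intervals. No paired analysis was possible because there was only 1 library of any mark. Depth is unknown, so a missing interval does not show that a mark is absent.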
